A study of Mus musculus with 22 samples.

Results

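The 10 genes described here take part in, or regulate, the uptake of fatty acids by a cell and their transport inside it. They were followed through adipocyte differentiation of C3H 10T1/2 cells, a mouse mesenchymal line, expressing wild-type DNMT3A (WT), the W330R mutant or the double mutant W330R-R181E. They form a list of named genes, chosen by function, of the fatty acid binding proteins Fabp3, Fabp4 and Fabp5, the scavenger receptor Cd36, the lipase Lpl with its partners Gpihbp1 and Angptl4, and the fatty acid transport proteins Slc27a1, Slc27a3 and Slc27a4. All 10 were found among the 30170 genes of the count table, and 9 of them passed the filter on low counts that left 14520 genes for testing. Gpihbp1 did not.

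RNA was sequenced in 11 conditions with 2 libraries each, 22 in all. WT and W330R cells were measured undifferentiated and at days 2, 4 and 6, and W330R-R181E cells at days 2, 4 and 6 only. Every group shares the parent line and an introduced DNMT3A1 construct, so no group without a construct was compared, and the undifferentiated cells received no differentiation medium. Differentiating cells received serum, isobutylmethylxanthine, dexamethasone, insulin and troglitazone for 2 days and then serum with insulin. A course from day 2 to day 6 therefore cannot be told apart from this change of medium. The labels do not say whether the 2 libraries of a condition came from separate cultures or lines, so p-values measure only the spread between these libraries. They also do not give the promoter that drives the construct, and the 6 columns of the double mutant write R181A where the labels write R181E. Columns of undifferentiated cells follow another naming pattern than those of days 2 to 6, and a difference in sequencing cannot be told apart from the step into differentiation.

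Libraries held about 8859500 to 47453900 counts, with a median of 19355800. Levels are given as normalized CPM, counts divided by the scaled library size. Summed CPM of 6 mesenchymal or fibroblast markers was 14723 to 18631 in undifferentiated cells, and that of 8 adipocyte markers, among them Adipoq, Plin1 and Pparg, was 36.3 to 47.2 there, with Cfd, Plin1, Lep and Cidec at 0. At day 6 the adipocyte sum reached 2742 to 3842 in WT, 709 to 752 in W330R and 958 to 1010 in W330R-R181E. Skeletal muscle markers summed to at most 1.59 CPM and the 5 macrophage markers in the file to at most 16.6 CPM, whereas 6 endothelial markers summed to 10.7 to 24.3 CPM undifferentiated and 1.54 to 15.7 CPM during differentiation. Dnmt3a was counted with no way to tell the construct from the cell's own gene. It was at 316 to 347 CPM undifferentiated and 68.5 to 322 CPM later. Its log2 difference over days 2 to 6 was -0.45 for W330R against WT. The double mutant differed by -0.24 from W330R and by -0.68 from WT. At day 2 alone these differences were -1.11, -0.03 and -1.14 in the same order, and none of the differences between genotypes was called. Into day 2, its fall was called in W330R (log2 -1.48) and not in WT (-0.48). In bulk RNA, fewer adipocytes and less RNA per adipocyte cannot be told apart.

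Lipoprotein lipase, which adipocytes secrete, frees fatty acids from circulating triglyceride. GPIHBP1 holds the enzyme on the capillary wall and ANGPTL4 inactivates it. CD36 and the transport proteins of the Slc27a family move the freed fatty acids into the cell, where small binding proteins of the FABP family carry them. Fabp4 is a standard marker of the adipocyte, and Fabp4, Lpl, Cd36 and Angptl4 are known targets of PPARG, the receptor that troglitazone activates.

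The 3 binding proteins are paralogs, and the first 240 bases of each coding sequence are printed to show how far reads can tell them apart. They run 5′ to 3′ from the start codon, as in the GENCODE M21 transcripts, and capitals mark bases that are identical in all 3 after alignment by codon.
Fabp3: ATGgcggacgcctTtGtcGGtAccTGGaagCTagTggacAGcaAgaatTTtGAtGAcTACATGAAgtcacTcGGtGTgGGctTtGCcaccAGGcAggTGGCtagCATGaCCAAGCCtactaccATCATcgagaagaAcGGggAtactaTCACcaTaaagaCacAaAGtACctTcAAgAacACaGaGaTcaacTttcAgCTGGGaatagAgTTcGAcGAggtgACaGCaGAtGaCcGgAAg
Fabp4: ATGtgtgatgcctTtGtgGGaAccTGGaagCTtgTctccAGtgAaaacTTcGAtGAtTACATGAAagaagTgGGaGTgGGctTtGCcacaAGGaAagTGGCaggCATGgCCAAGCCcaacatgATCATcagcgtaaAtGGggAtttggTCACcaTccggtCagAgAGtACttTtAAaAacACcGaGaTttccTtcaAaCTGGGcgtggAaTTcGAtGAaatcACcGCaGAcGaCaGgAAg
Fabp5: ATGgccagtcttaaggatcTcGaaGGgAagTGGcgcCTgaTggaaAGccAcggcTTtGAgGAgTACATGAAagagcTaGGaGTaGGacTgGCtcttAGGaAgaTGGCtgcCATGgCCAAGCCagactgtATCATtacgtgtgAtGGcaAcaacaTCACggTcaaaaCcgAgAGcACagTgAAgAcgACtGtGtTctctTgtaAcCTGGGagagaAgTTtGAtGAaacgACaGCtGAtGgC
Without the stop codon, the coding lengths were 399, 396 and 405 bases, of which 173 bases were identical in all 3. Fabp4 shared 63.4% of aligned bases with Fabp3 and 59.8% with Fabp5, and Fabp3 and Fabp5 shared 55.1%. The longest run of identical bases between any pair was 14, which is shorter than the 31-base words compared next. No 31-base word of the Fabp4 transcript occurred in a transcript of another gene, whereas 33.1% of those of Fabp5 and 50.1% of those of Fabp3 did. The genes sharing the most words with Fabp5 were the pseudogenes Gm6166, Gm14328 and Gm6100, and those with Fabp3 were Fabp3-ps1, Zcchc17 and Gm10570. Counts of Fabp3 and Fabp5 are therefore less certain than those of Fabp4.

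Entry into differentiation raised 7 of the 9 tested genes in WT cells and the same number in W330R cells. Over all tested genes, 50.9% changed between undifferentiated and day 2 WT cells and 26.5% rose, and in W330R these shares were 48.2% and 25.1%. Differences were tested with edgeR's quasi-likelihood test with Benjamini-Hochberg adjustment over all tested genes, and a gene was called at an adjusted p below 0.05. The 7 genes that rose were Fabp4, Fabp5, Cd36, Lpl, Angptl4, Slc27a3 and Slc27a4 in both genotypes. The median log2 fold change of the 9 genes was 2.87 in WT and 3.56 in W330R, against 0.06 and 0.08 over all tested genes. Between genotypes, the counts of called genes among the 9 were smaller and are given with each comparison.

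**Figure D1:**
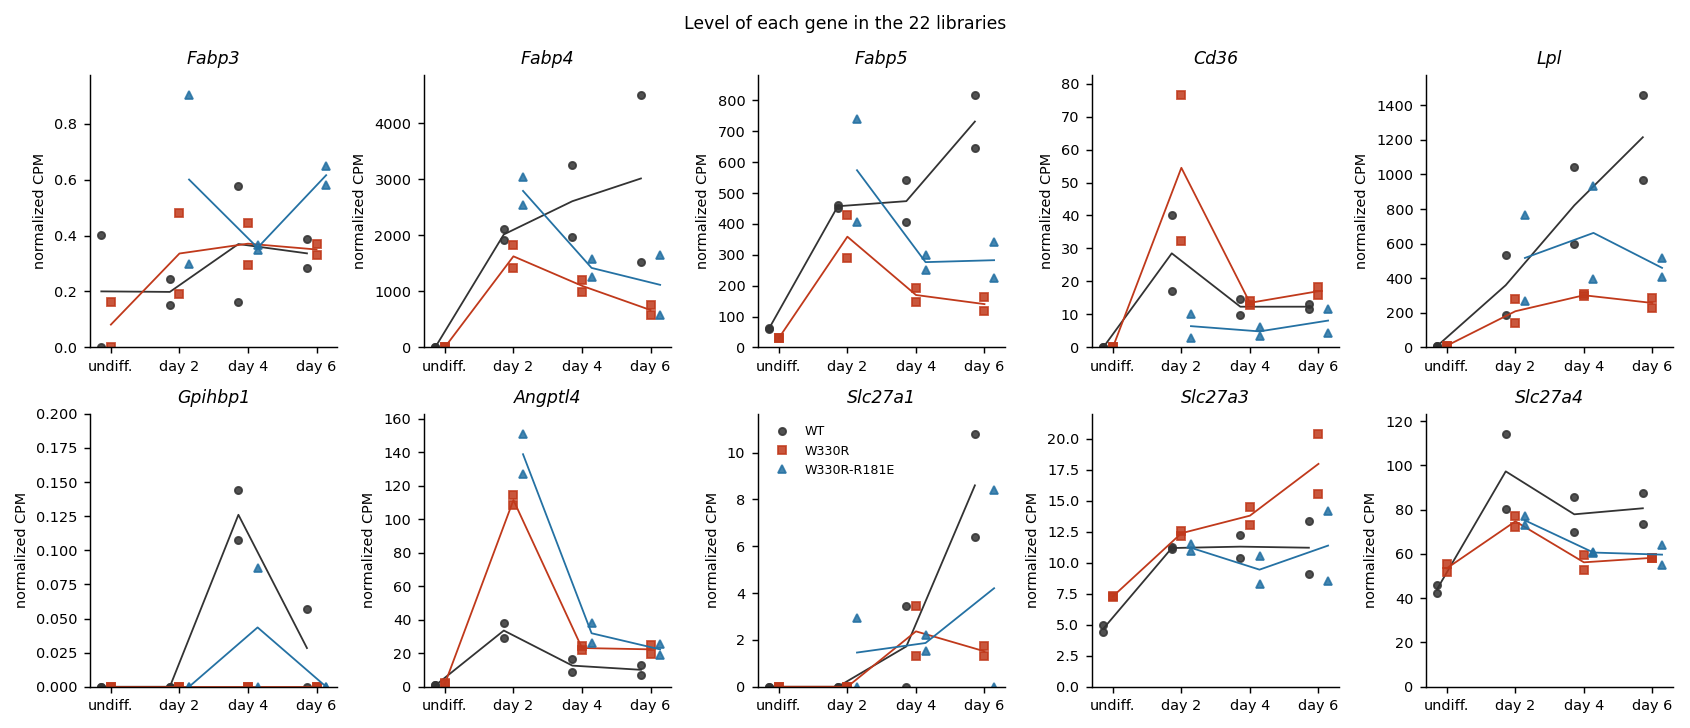
Normalized CPM (linear axes from 0, each with its own scale) of the 10 genes in undifferentiated cells and at days 2, 4 and 6, with 1 point per library and lines joining the means of the 2 libraries of a condition. Fabp4, Fabp5 and Lpl separate the WT libraries from the W330R libraries at day 6, Angptl4 is highest at day 2 in the 2 mutants, and Gpihbp1 stays at 0 to 2 counts.

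W330R cells were compared with WT cells to ask what this mutant changes. Averaged over days 2, 4 and 6, 5 of the 9 tested genes were called, with Fabp4, Fabp5, Lpl and Slc27a4 lower and Angptl4 higher in W330R. Over all tested genes 29.0% were called, 14.8% lower and 14.3% higher. The median log2 difference was -0.44 for the 9 genes and 0.02 for all genes. None of the 5 calls was lost in 27 alternative fits. By stage, 0 of 9 genes were called in undifferentiated cells (1.75% of all genes), 1 at day 2 (3.06%), 1 at day 4 (6.14%) and 4 at day 6 (7.54%). For the undifferentiated cells, 3 of the 9 had an unadjusted edgeR p below 0.05 and DESeq2 called 1, Fabp5. Fits of only the conditions compared called 3 of these genes undifferentiated, 0 at days 2 and 4 and 1 at day 6. Over all genes these fits called 4194, 0, 0 and 57, in place of 254, 445, 891 and 1095. How the counts run across the stages therefore depends on the fit.

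W330R-R181E cells were compared with W330R cells to ask what the second substitution adds. In the double mutant, Fabp5 and Lpl were higher and Cd36 and Slc27a3 lower over days 2 to 6, 4 of 9 genes against 17.2% of all genes. The median log2 difference was 0.52 for the 9 genes and 0.01 for all genes. This middle value was that of Fabp3, which held at most 25 counts in any library. The highest value was that of Slc27a1, which had 0 counts in 11 libraries. The median is therefore no measure of a shared rise. At day 2 only Cd36 was called (2.67% of all genes). At day 4 (1.91%) and day 6 (1.50%) edgeR called 0 of 9, with 3 and 2 genes at an unadjusted p below 0.05, and DESeq2 called 0 at day 4 and Fabp5 at day 6.

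Against WT, the double mutant had lower Fabp5, Cd36 and Slc27a4 and higher Angptl4 over days 2 to 6, 4 of 9 genes against 9.57% of all genes. The medians were -0.39 for the 9 genes and 0.00 for all genes on the log2 scale. At day 6 Fabp5 was called (0.875% of all genes). At days 2 and 4 edgeR called 0 of 9 and 0% of all genes. At each of these days 3 of the 9 genes had an unadjusted p below 0.05, and DESeq2 called Angptl4. These 3 comparisons share libraries, so the values for each gene are set side by side and not counted as separate support.

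**Figure D2:**
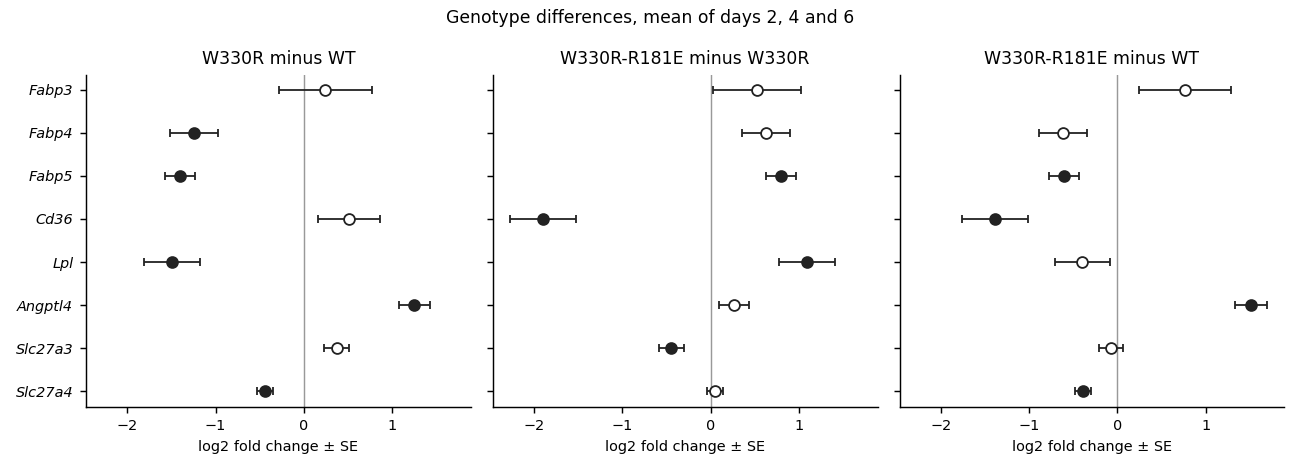
Log2 fold change ± SE between genotypes over days 2, 4 and 6 (6 libraries per genotype, edgeR), filled where the adjusted p was below 0.05. In W330R against WT, Fabp4, Fabp5, Lpl and Slc27a4 lie below 0 and Angptl4 above, and Cd36 is the lowest point of both comparisons of the double mutant. Slc27a1, at 0 counts in whole conditions, and the untested Gpihbp1 are not drawn.

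Fabp4, the adipocyte form of the binding proteins, was the most abundant of the 3 throughout differentiation. At days 2, 4 and 6 it was lower in W330R than in WT cells. Undifferentiated, both W330R libraries were above both WT libraries, a difference that was not called (log2 0.33 ± 0.56, edgeR adjusted p = 0.941). WT libraries held 2.82 and 4.05 CPM undifferentiated, 2113 and 1919 at day 2, 1961 and 3256 at day 4, and 1521 and 4507 at day 6. W330R libraries held 4.49 and 4.28 CPM undifferentiated, 1832 and 1419 at day 2, 993 and 1207 at day 4, and 577 and 758 at day 6. Every W330R library was below every WT library of the same day, in 12 of 12 within-day pairings. The share of all genes that separate in this way was not counted, here or for the genes below. In W330R-R181E, values were 3037 and 2547 CPM at day 2, 1252 and 1585 at day 4, and 578 and 1656 at day 6, with 1 day 6 library inside and the other above the W330R range.

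The rise into day 2 was a log2 fold change of 9.17 ± 0.67 (SE) in WT, edgeR adjusted p = 1.9e-07, and 8.53 ± 0.66 in W330R, adjusted p = 4.4e-07. Over days 2 to 6, Fabp4 was 2.37-fold lower in W330R than in WT, a log2 difference of -1.24 ± 0.27, adjusted p = 0.0039. At day 6 the difference was 4.52-fold, adjusted p = 0.0162. That day 6 call was lost without WT day 6 library 2 (log2 difference -1.20, adjusted p = 0.31), W330R day 6 library 1 (-1.96, 0.145) or library 2 (-2.37, 0.105). The double mutant lay 0.63 ± 0.27 above W330R and 0.61 ± 0.27 below WT on the log2 scale, with adjusted p = 0.128 and 0.158, so neither difference passed. From day 2 to day 6, Fabp4 had log2 changes of 0.58 ± 0.47 in WT, -1.28 ± 0.47 in W330R and -1.32 ± 0.47 in the double mutant, with adjusted p = 0.387, 0.061 and 0.057. With the replicate number as a block, edgeR called the falls in W330R (-1.34 ± 0.41, adjusted p = 0.0236) and the double mutant (-1.45 ± 0.41, adjusted p = 0.0184).

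Fabp5, the epidermal form, was already present before induction and was lower in W330R than in WT. WT libraries held 64.3 and 60.8 CPM undifferentiated, 462 and 453 at day 2, 406 and 542 at day 4, and 645 and 818 at day 6. W330R libraries held 29.8 and 31.2 CPM undifferentiated, 427 and 290 at day 2, 146 and 194 at day 4, and 164 and 117 at day 6. W330R was below WT in 12 of 12 within-day pairings, and the undifferentiated libraries did not overlap either. W330R-R181E held 740 and 408 CPM at day 2, 252 and 300.2 at day 4, and 225 and 340 at day 6, above W330R in 11 of 12 pairings and below WT in 10 of 12.

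Fabp5 was, over days 2 to 6, 2.65-fold lower in W330R than in WT (log2 -1.40 ± 0.17, edgeR adjusted p = 7.9e-05). The difference was -1.48 ± 0.30 at day 4 (adjusted p = 0.0142) and -2.38 ± 0.30 at day 6 (adjusted p = 0.00072), while in undifferentiated cells it was -1.03 ± 0.30 with adjusted p = 0.114. The day 4 call was lost without WT day 4 library 2 (adjusted p = 0.165) or W330R day 4 library 1 (0.144) or 2 (0.054). The double mutant was 1.74-fold above W330R over the 3 days (log2 0.80 ± 0.17, adjusted p = 0.0054), a call kept in all 27 alternatives. Against WT it was 1.52-fold lower over the 3 days (adjusted p = 0.0375) and 2.59-fold lower at day 6 (adjusted p = 0.0448). Leaving out 1 library ended those 2 calls in 11 and 19 of 22 cases, with adjusted p of up to 0.124 and 0.402.

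From day 2 to day 6 Fabp5 fell 2.55-fold in W330R (edgeR adjusted p = 0.0047) and 2.03-fold in the double mutant (adjusted p = 0.0227). The W330R call was lost without W330R day 2 library 1 (adjusted p = 0.062) or day 6 library 2 (0.064), and that of the double mutant without its day 2 library 1 (log2 -0.53, 0.209) or day 6 library 1 (-0.75, 0.184). In WT the log2 change was 0.68 ± 0.29 with adjusted p = 0.0999. The difference between the W330R and WT courses was -2.03 ± 0.41 on the log2 scale and did not pass (adjusted p = 0.098). For this difference in course, edgeR called 0 of 9 genes, with 2 at an unadjusted p below 0.05, and 0.0895% of all genes, and DESeq2 called Fabp5. For the double mutant against W330R, both tools called 0 of 9, with 1 gene at an unadjusted edgeR p below 0.05, and edgeR called 0% of all genes.

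Gm6166, a processed pseudogene of Fabp5, took 24.9% to 29.2% of the summed Fabp5 and Gm6166 counts in the 18 differentiating libraries and 40.7% to 44.4% in the 4 undifferentiated ones. These 2 ranges do not overlap, and they move with the column naming pattern, whose part was not tested. With Gm6166 counts added to Fabp5, W330R was below WT by 1.41 ± 0.17 on the log2 scale over days 2 to 6 (adjusted p = 7e-05). The rise into day 2 became 2.52 in WT and 3.25 in W330R in place of 2.87 and 3.56. None of the 20 Fabp5 contrasts changed its call or its sign with this sum, which was tried after the values were seen.

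Fabp3, the heart form, stayed near the detection floor. Its libraries held 0 to 25 counts, or 0 to 0.903 CPM, and 0 of 20 contrasts called it. Its highest mean, 0.616 CPM in W330R-R181E day 6, and its lowest, 0.0817 CPM in undifferentiated W330R cells, stood at either end of an order in which each condition overlapped the next.

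Levels of different genes were compared only per kilobase of transcript. On that scale Fabp4 made up 4.61% to 6.79% of the 3 binding proteins in undifferentiated WT libraries and 13.1% to 14.2% in undifferentiated W330R libraries, with Fabp5 making up nearly all of the rest. In the 18 differentiating libraries Fabp4 made up 72.2% to 88.2%, with a mean of 83.4% ± 4.43 (SD, n = 18). This SD runs over libraries of all genotypes and days, which are not replicates of each other. Counts of Gm6166 were not added to Fabp5 for these shares. The lowest 2 shares were 72.2% in WT day 6 library 1 and 73.8% in W330R-R181E day 6 library 1. Its share was 79.5% to 87.6% in W330R at day 6, where Fabp4 was 4.52-fold and Fabp5 5.21-fold below WT.

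**Figure D3:**
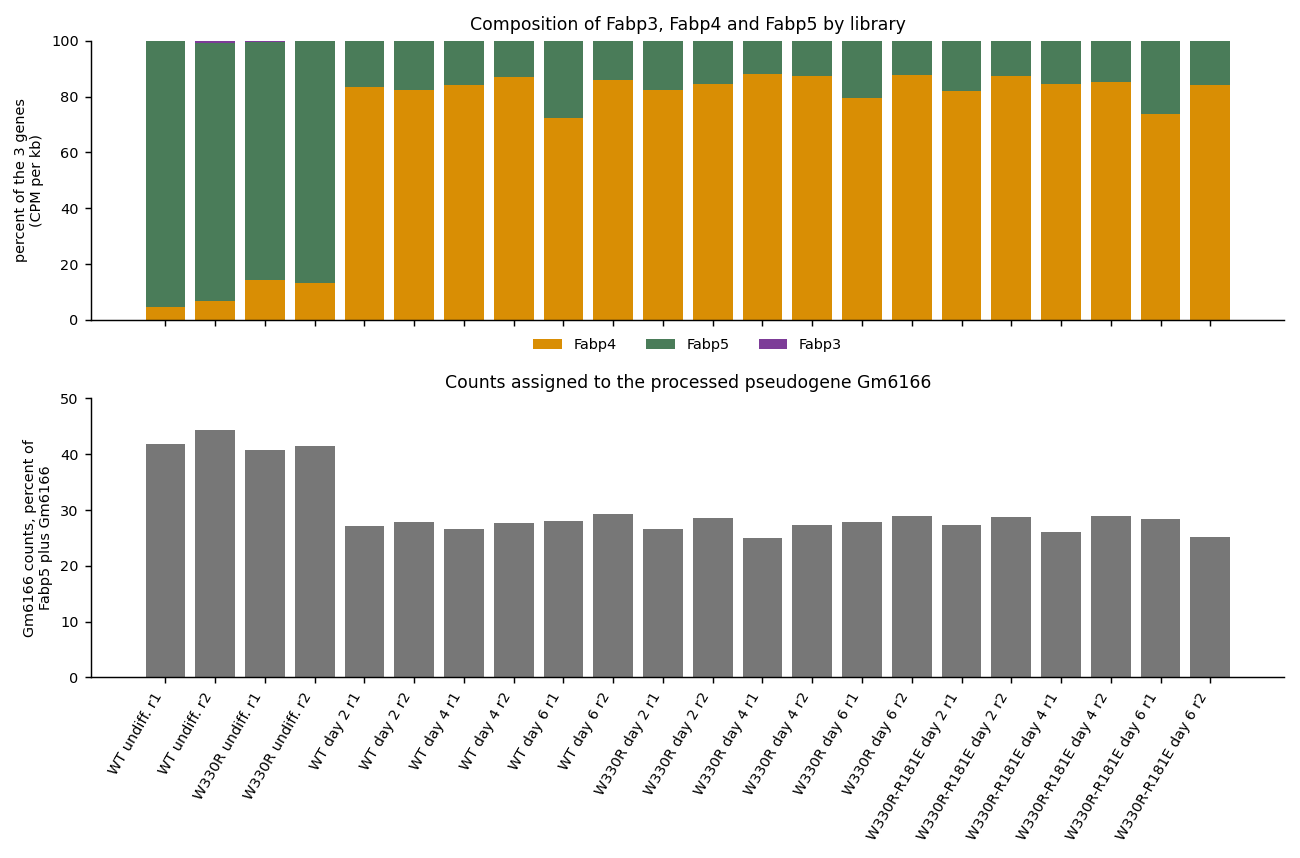
Top, share of Fabp4, Fabp5 and Fabp3 in the CPM per kilobase of the 3 genes, in percent, for each of the 22 libraries. Bottom, counts of the pseudogene Gm6166 in percent of Fabp5 plus Gm6166. The 4 undifferentiated libraries have mostly Fabp5 and a Gm6166 share above 40%, and all differentiating libraries have mostly Fabp4 and a share below 30%.

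Lpl, the secreted lipase, was higher at day 6 than at day 2 in WT cells. Over days 2 to 6 it was lower in W330R than in WT cells. Undifferentiated, both W330R libraries were above both WT libraries, a difference that was not called (log2 0.23 ± 0.59, edgeR adjusted p = 0.977). WT libraries held 8.98 and 8.42 CPM undifferentiated, 532 and 188 at day 2, 1044 and 598 at day 4, and 969 and 1460 at day 6. W330R libraries held 10.9 and 9.48 CPM undifferentiated, 278 and 140 at day 2, 297 and 307 at day 4, and 229 and 285 at day 6. W330R was below WT in 11 of 12 within-day pairings, and only the day 2 libraries overlapped. W330R-R181E held 763 and 271 CPM at day 2, 930.5 and 393 at day 4, and 406 and 514 at day 6, above W330R in 11 of 12 pairings.

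The rise of Lpl into day 2 was a log2 change of 5.37 ± 0.66 in WT (edgeR adjusted p = 1.5e-05) and 4.36 ± 0.64 in W330R (adjusted p = 8.2e-05). From day 2 to day 6 Lpl rose 3.38-fold in WT (adjusted p = 0.0309). That call was lost without WT day 2 library 2 (log2 1.20, adjusted p = 0.223), day 6 library 1 (2.02, 0.052) or day 6 library 2 (1.45, 0.131). The log2 change was 0.30 ± 0.54 in W330R and -0.17 ± 0.54 in the double mutant, with adjusted p = 0.735 and 0.861. The difference in course between W330R and WT, -1.46 ± 0.77, did not pass (adjusted p = 0.829).

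Over days 2 to 6 Lpl was 2.81-fold lower in W330R than in WT (log2 -1.49 ± 0.32, edgeR adjusted p = 0.0034) and 4.73-fold lower at day 6 (adjusted p = 0.0276). The day 6 call was lost without WT day 6 library 2 (adjusted p = 0.243) or W330R day 6 library 1 (0.193) or 2 (0.157). The double mutant was 2.13-fold above W330R (log2 1.09 ± 0.32, adjusted p = 0.0288), a call that ended in 8 of the 22 fits that left out 1 library, with adjusted p of 0.056 to 0.1. All 8 left out a W330R or W330R-R181E library, and the lowest log2 difference, 0.78, came without W330R-R181E day 2 library 1. Against WT the double mutant differed by -0.40 ± 0.31, adjusted p = 0.441.

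Angptl4, the inhibitor of the lipase, went the other way and was the one gene of the 10 that edgeR called higher in W330R than in WT over days 2 to 6. DESeq2 and the fit with a replicate block also called Slc27a3. WT libraries held 0.793 and 0.801 CPM undifferentiated, 38.1 and 29.0 at day 2, 16.5 and 8.77 at day 4, and 12.99 and 7.24 at day 6. W330R libraries held 1.39 and 2.08 CPM undifferentiated, 114 and 109 at day 2, 24.1 and 22.1 at day 4, and 19.8 and 24.9 at day 6. W330R-R181E held 151 and 127 CPM at day 2, 37.8 and 26.1 at day 4, and 25.8 and 18.8 at day 6. All libraries of both mutants were above all WT libraries of the same day, 12 of 12 pairings for each.

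Angptl4 peaked at day 2 in every genotype. It rose by 5.38 ± 0.41 on the log2 scale into day 2 in WT (edgeR adjusted p = 2.6e-07) and by 6.03 ± 0.40 in W330R (adjusted p = 1.4e-07). From day 2 to day 6 it fell 3.32-fold in WT (adjusted p = 0.0013), 5.00-fold in W330R (adjusted p = 0.00024) and 6.17-fold in the double mutant (adjusted p = 0.00012), and none of these calls was lost in the alternatives. Beside Angptl4, the course from day 2 to day 6 was called for Lpl and Slc27a1 in WT, 3 of 9 genes against 26.6% of all genes. It was called for Fabp5 in W330R and in the double mutant, 2 of 9 in each, against 25.0% and 23.2% of all genes.

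**Figure D4:**
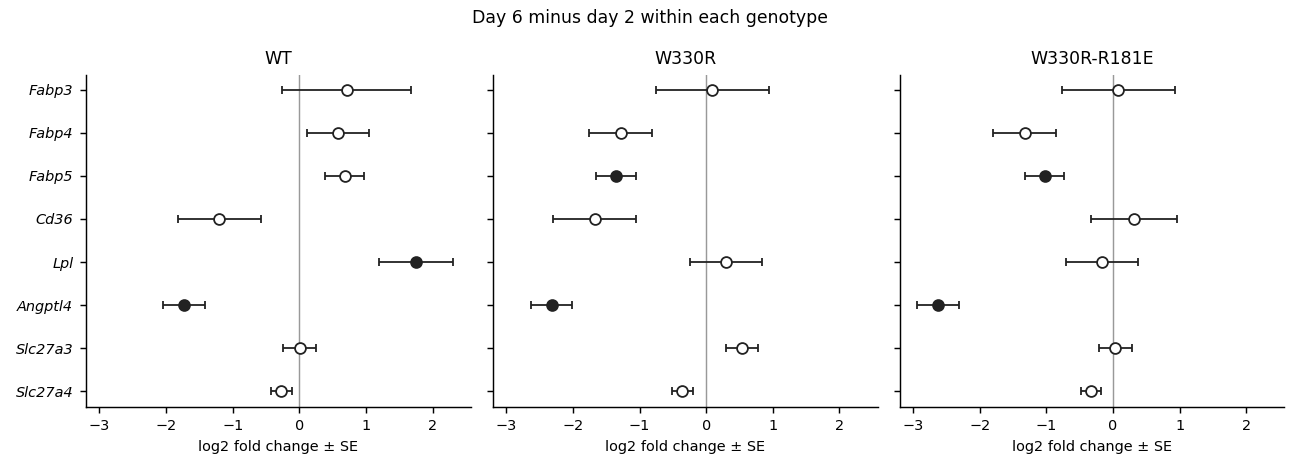
Log2 fold change ± SE from day 2 to day 6 within each genotype (2 libraries per day, edgeR), filled where the adjusted p was below 0.05. Angptl4 fell in all 3 genotypes, Lpl rose in WT, and Fabp5 fell in W330R and W330R-R181E. Slc27a1 and Gpihbp1 are not drawn.

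Over days 2 to 6 Angptl4 was 2.38-fold higher in W330R than in WT (log2 1.25 ± 0.18, edgeR adjusted p = 0.00024) and 2.86-fold higher in the double mutant than in WT (log2 1.52 ± 0.18, adjusted p = 0.00067). The 2 mutants differed by 0.26 ± 0.17 with adjusted p = 0.337. Against WT, W330R was 3.32-fold higher at day 2 (adjusted p = 0.0107) and 2.21-fold higher at day 6 (adjusted p = 0.0377). The day 2 call was lost without WT day 2 library 2 (log2 1.55, adjusted p = 0.137). The day 6 call was lost in 9 of the 22 fits that left out 1 library, with adjusted p of 0.0501 to 0.468 and a log2 difference down to 0.77. With the replicate block, edgeR also called W330R against WT at day 4 (0.92 ± 0.25, adjusted p = 0.0327) and the double mutant against WT at day 2 (2.06 ± 0.25, adjusted p = 0.0183) and day 6 (1.16 ± 0.26, adjusted p = 0.033).

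The ratio of Lpl to Angptl4 counts, without division by length, is read only for its change between libraries. It restates the values of these 2 genes and is no separate support. In undifferentiated cells, where Angptl4 held only 9 to 18 counts, it was 11.3 and 10.5 in WT and 7.82 and 4.56 in W330R. In WT it was 13.95 and 6.48 at day 2, 63.4 and 68.1 at day 4, and 74.6 and 202 at day 6. In W330R it was 2.44 and 1.29 at day 2, 12.3 and 13.9 at day 4, and 11.6 and 11.5 at day 6. In the double mutant it was 5.06 and 2.14 at day 2, 24.6 and 15.1 at day 4, and 15.8 and 27.3 at day 6. WT libraries were above all mutant libraries on each day, and at days 4 and 6 the double mutant libraries were above both W330R libraries.

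**Figure D5:**
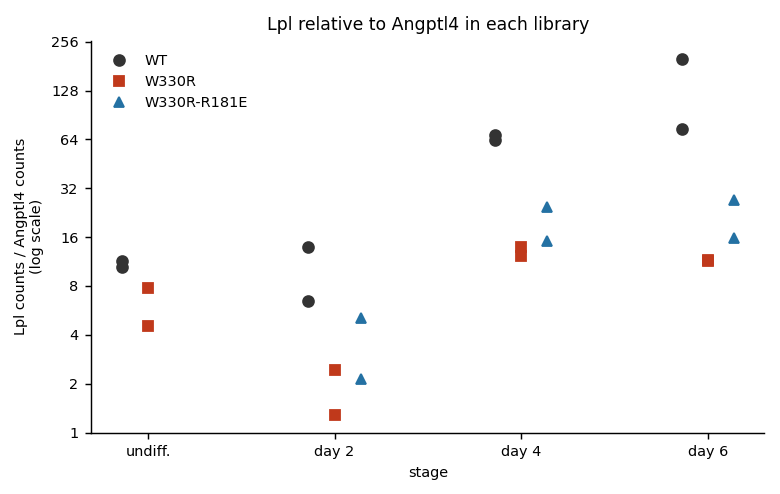
Ratio of Lpl counts to Angptl4 counts in each library (log axis) by stage and genotype, 1 point per library. WT reaches 74.6 and 202 at day 6, W330R stays at 11.5 and 11.6, and W330R-R181E lies between at 15.8 and 27.3.

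Gpihbp1, which is made by capillary endothelium in tissue, was at 0 counts in 18 of the 22 libraries and at 1 or 2 counts in the rest, all of them from days 4 and 6. The 3 counts that a library at 0 still allows corresponded to 0.0583 to 0.347 CPM, so differences below that level were not detectable at this depth.

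Cd36, a fatty acid translocase of the plasma membrane, was at 0 counts in all 4 undifferentiated libraries and appeared with induction. WT libraries held 40.1 and 16.97 CPM at day 2, 14.8 and 9.90 at day 4, and 11.7 and 13.03 at day 6. W330R libraries held 76.6 and 32.3 CPM at day 2, 12.98 and 14.1 at day 4, and 15.9 and 18.2 at day 6. W330R-R181E held 10.1 and 2.82 CPM at day 2, 6.26 and 3.48 at day 4, and 4.49 and 11.8 at day 6, below W330R in 12 of 12 within-day pairings and below WT in 11 of 12.

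For a lower bound, the undifferentiated libraries were set to a floor of 3 counts. The mean day 2 level of Cd36 was then at least 108-fold higher than undifferentiated in WT and at least 157-fold higher in W330R. The edgeR adjusted p of the rise, tested without this floor, was 2.5e-05 for both. Relative to W330R, Cd36 was 3.73-fold lower in the double mutant over days 2 to 6 (log2 -1.90 ± 0.37, adjusted p = 0.0045), a call kept in all 27 alternatives. At day 2 it was 8.58-fold lower (log2 -3.10 ± 0.67, adjusted p = 0.0313). That call was lost without W330R day 2 library 1 (log2 -2.35, adjusted p = 0.2) or W330R-R181E day 2 library 2 (-2.43, 0.105). Against WT the double mutant was 2.62-fold lower (log2 -1.39 ± 0.37, adjusted p = 0.0371), and 11 of the 22 fits without 1 library lost this call, with adjusted p of up to 0.102. W330R differed from WT by 0.51 ± 0.35, adjusted p = 0.308. Between the double mutant and W330R, Cd36 thus differed in the opposite direction to Fabp5 and Lpl. The 5 macrophage markers summed to 9.28 to 16.6 CPM in W330R-R181E and 4.87 to 6.79 CPM in W330R at day 2, and their part in the Cd36 values was not tested.

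Slc27a4, the most abundant of the 3 transport proteins per kilobase, was modestly lower in both mutants over days 2 to 6. Undifferentiated, both W330R libraries were above both WT libraries, a difference that was not called (log2 0.28 ± 0.16, edgeR adjusted p = 0.532). WT libraries held 45.8 and 42.6 CPM undifferentiated, 80.4 and 114 at day 2, 70.0 and 85.8 at day 4, and 73.6 and 87.6 at day 6. W330R libraries held 55.3 and 51.7 CPM undifferentiated, 77.2 and 72.2 at day 2, 52.7 and 59.7 at day 4, and 58.2 in both at day 6. W330R-R181E held 73.1 and 77.2 CPM at day 2, 60.9 and 60.3 at day 4, and 64.2 and 55.1 at day 6. Each mutant was below WT in 12 of 12 within-day pairings.

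Slc27a4 rose 2.20-fold into day 2 in WT (edgeR adjusted p = 4.2e-05) and by 0.48 ± 0.16 on the log2 scale in W330R (adjusted p = 0.0206), the latter lost without W330R undifferentiated library 1 (adjusted p = 0.061) or 2 (0.117) or W330R day 2 library 1 (0.094). Over days 2 to 6 it was 1.36-fold lower in W330R than in WT (log2 -0.44 ± 0.09, adjusted p = 0.0025) and 1.31-fold lower in the double mutant (log2 -0.39 ± 0.09, adjusted p = 0.0177). The double mutant call was lost without WT library 2 of day 2, 4 or 6 or without W330R-R181E day 4 library 1, with adjusted p of 0.063 to 0.081. The 2 mutants differed by 0.05 ± 0.09, adjusted p = 0.765.

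Slc27a3 was highest in W330R at each stage. WT libraries held 4.40 and 4.94 CPM undifferentiated, 11.1 and 11.3 at day 2, 12.2 and 10.4 at day 4, and 13.3 and 9.09 at day 6. W330R libraries held 7.27 and 7.29 CPM undifferentiated, 12.2 and 12.6 at day 2, 14.5 and 13.1 at day 4, and 20.4 and 15.6 at day 6, above WT in 12 of 12 within-day pairings. W330R-R181E held 10.9 and 11.5 CPM at day 2, 10.6 and 8.31 at day 4, and 14.2 and 8.56 at day 6, below W330R in 12 of 12.

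Slc27a3 rose 2.38-fold into day 2 in WT (edgeR adjusted p = 0.00085) and 1.70-fold in W330R (adjusted p = 0.0199), and the W330R call was lost without any one of the 4 W330R libraries compared, with adjusted p of 0.053 to 0.086. W330R differed from WT over days 2 to 6 by 0.37 ± 0.14 on the log2 scale, adjusted p = 0.058, a difference that was called by DESeq2 (adjusted p = 0.049) and with the replicate block in edgeR (adjusted p = 0.0276). The block also called it at day 6 (log2 0.69 ± 0.21, adjusted p = 0.0472, against 0.102 without the block). The double mutant was 1.36-fold below W330R (log2 -0.45 ± 0.14, adjusted p = 0.0406), but 15 of the 22 fits without 1 library lost that call, with adjusted p of up to 0.121. Against WT it differed by -0.07 ± 0.14, adjusted p = 0.786.

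Slc27a1 came as an all-or-none signal between libraries. It had 0 counts in 11 of the 22 libraries and 25 to 362 in the other 11, and both situations occurred within 3 conditions. These are estimated counts, so a 0 need not mean that its RNA was absent. WT held 0 and 3.45 CPM at day 4 and 6.41 and 10.8 at day 6, with 0 in every undifferentiated and day 2 library. W330R held 3.44 and 1.30 CPM at day 4 and 1.30 and 1.72 at day 6. W330R-R181E held 0 and 2.92 CPM at day 2, 1.52 and 2.22 at day 4, and 8.41 and 0 at day 6. WT day 6 was called above WT day 2 (edgeR adjusted p = 0.0486), with no fold given because of these zeros, and the call was lost in 16 of the 22 fits without 1 library, with adjusted p of up to 0.188. No genotype contrast called it.

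In every within-day pairing, Cd36 and Slc27a3 of the double mutant were below W330R. The pairings reuse the same libraries, and the share of all genes separated in this way was not counted. The 250 bases upstream of the start sites of both genes are printed because DNMT3A methylates CpG sites. No methylation was measured here. Both are from RefSeq on GRCm38.p6, on the minus strand, 5′ to 3′ toward the gene, at chr5:17835897-17836146 and chr3:90389939-90390188, with CG in capitals.
Cd36: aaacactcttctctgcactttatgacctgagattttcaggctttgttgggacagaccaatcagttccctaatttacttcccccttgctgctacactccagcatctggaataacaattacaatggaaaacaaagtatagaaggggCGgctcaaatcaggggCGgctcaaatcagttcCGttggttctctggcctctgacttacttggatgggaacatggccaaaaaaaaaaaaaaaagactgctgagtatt
Slc27a3: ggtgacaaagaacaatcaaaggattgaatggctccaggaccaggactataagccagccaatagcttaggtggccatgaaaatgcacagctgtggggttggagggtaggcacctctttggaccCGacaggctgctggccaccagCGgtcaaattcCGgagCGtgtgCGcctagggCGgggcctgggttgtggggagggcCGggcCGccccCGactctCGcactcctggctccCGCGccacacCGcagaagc
The Cd36 stretch held 3 CpG sites and that of Slc27a3 held 13, against a median of 6 over 32851 promoter stretches of this length. Promoters of 5 of the 10 genes were matched by symbol, and the others with an entry were Slc27a4 with 8, Fabp3 with 17, and Slc27a1 with 8, 12 and 10 at its 3 entries. The direct repeat DR1, the form bound by PPARG, was searched on both strands as AGGTCA, any 1 base and AGGTCA again, and matched none of these stretches and 0.0335% of all. AGGTCA by itself, which also lies within that repeat, matched once in Cd36 and in 14.02% of all stretches.

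Related genes on the same route were taken from 3 lists. Among genes that mature or assist lipase and handle lipoproteins, 16 of 17 were in the file and 12 were tested. In W330R against WT over days 2 to 6, Pcsk6, Sort1, Vldlr, Lipg and Sel1l fell and Lrp1 rose, 6 of 12 against the 29.0% over all genes. Sort1, the sorting receptor sortilin, fell by 0.85 ± 0.13 on the log2 scale (edgeR adjusted p = 0.00039), and Vldlr, a lipoprotein receptor, fell by 1.50 ± 0.22 (adjusted p = 0.0003). Lipg, the endothelial lipase, fell by 2.15 ± 0.40 (adjusted p = 0.0015). In the double mutant against W330R, Lipg (log2 2.85 ± 0.41, adjusted p = 0.00038), Sort1 (0.58 ± 0.13, 0.0075) and Pcsk6 (0.50 ± 0.15, 0.038) rose and Lrp1 fell, 4 of 12 against 17.2% of all genes. In the double mutant against WT, Pcsk6 and Vldlr fell, 2 of 12 against 9.57%. The medians of the 12 genes were -0.44, 0.25 and -0.10 in these 3 comparisons, against 0.02, 0.01 and 0.00 over all genes.

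Of 11 genes for fatty acid activation and other entry, all tested, 7 were called in W330R against WT over days 2 to 6, against 29.0% of all genes. Acsl1, Acsl3, Acsl4, Dbi and Zdhhc5 fell, and Acsl5 and Zdhhc4 rose. Acsl1, a long-chain acyl-CoA synthetase of adipocytes, fell by 2.17 ± 0.16 on the log2 scale (edgeR adjusted p = 7.4e-06), from means of 2515, 3443 and 2775 CPM at days 2, 4 and 6 in WT to 809, 742 and 440 in W330R. Dbi, the acyl-CoA binding protein, fell by 1.21 ± 0.16 (adjusted p = 0.00015). In the double mutant against W330R, Dbi rose by 1.47 ± 0.16 (adjusted p = 5.2e-05), Acsl1 by 0.82 ± 0.16 (adjusted p = 0.0028) and Acsl3 by 0.30 ± 0.08 (adjusted p = 0.0155), while Scarb1 and Zdhhc4 fell, 5 of 11 against 17.2% of all genes. Against WT, Acsl1, Acsl3, Acsl4 and Zdhhc5 were lower and Acsl5 higher in the double mutant, 5 of 11 against 9.57% of all genes. The medians of the 11 genes were -0.29, 0.27 and -0.05, against 0.02, 0.01 and 0.00 over all genes.

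Of the 10 other members of the FABP and Slc27a families, 4 were tested. Slc27a6 was higher in W330R than in WT over days 2 to 6 (log2 1.73 ± 0.25, edgeR adjusted p = 0.0003) and also higher in the double mutant (log2 1.25 ± 0.25, adjusted p = 0.0105). Its means were 8.57, 3.72 and 6.17 CPM in WT and 17.5, 15.6 and 26.2 CPM in W330R at days 2, 4 and 6. Pmp2, the peripheral myelin FABP, stood at 22.8 to 39.9 CPM in undifferentiated cells and at 0.0972 to 5.58 CPM afterwards, a fall of 4.35 ± 1.01 in WT into day 2 (adjusted p = 0.0026). Of the 7 tested adipocyte markers, 6 fell and 0 rose in W330R against WT over days 2 to 6, where 14.8% of all genes fell, and 4 rose in the double mutant against W330R, where 7.87% of all genes rose. Of 6 mesenchymal or fibroblast markers, 4 rose in W330R against WT and 4 fell in the double mutant against W330R, beside 14.3% and 9.36% of all genes. The part of these markers in the results for the 10 genes was not tested.

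For each tested gene, the gene with the most similar pattern was found by Pearson correlation of log2 CPM over the 11 condition means, among 11148 genes. These were Gm4459 for Fabp4 (r = 0.998), Lrig1 for Lpl (0.996), Prr18 for Angptl4 (0.991), Sgtb for Fabp5 (0.990), AI837181 for Cd36 (0.986), Rnf216 for Slc27a3 and 4833439L19Rik for Slc27a4 (0.976 each), 2510003E04Rik for Fabp3 (0.938) and Arpc1b for Slc27a1 (0.910). Among the genes themselves, Fabp4 and Lpl were the most alike (r = 0.965) and Slc27a1 and Slc27a4 the least (r = 0.0651). All of these values share the same 22 libraries and the step from undifferentiated cells to day 2.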

How the data were processed

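RNA of 22 libraries was sequenced, and the authors deposited 1 table of expected counts per gene as whole numbers. The submitters' processing notes name kallisto, DESeq2 1.40 and GRCm39 without their roles. Libraries were grouped by the labels' genotype and day. Genes were kept with at least 10 counts in enough libraries and 15 in all (filterByExpr), library sizes were scaled by TMM, and 1 mean per condition was fitted to all libraries with edgeR 4.0.16 in R 4.3.3 (glmQLFit, glmQLFTest). Adjusted p-values are Benjamini-Hochberg over all tested genes. Each SE given with edgeR was derived as the absolute log2 fold change divided by the square root of the F statistic of its test. DESeq2 1.42.0, RLE scaling, no filter, fits of only the conditions compared, a replicate block and leaving out each library were tried. The fitting was tested on simulated data. The labels do not say what a replicate number marks. How far libraries with the same number departed from the mean of their condition correlated above 0.1 in all 9 pairs of genotypes on the same day (r from 0.157 to 0.534) and in all 3 pairs of day 2 and day 6 (0.1 to 0.3), but in none of the 19 pairs with undifferentiated cells, so values with the replicate block are given where they change a call.

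All 10 genes are named. Genes of the 3 related lists are named where called, and the closest pattern by correlation of condition means is named for each tested gene, among genes averaging log2 CPM 1 or more. The genes and lists were chosen with earlier results of these data known. Coordinates on GRCm38.p6 come from RefSeq promoter tables, not from the build of the counts. Floors of 3 counts cover counting error only.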

Additional observations from a re-analysis of the deposited data

Results flagged for a closer look

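Fabp5 was singled out because its course from day 2 to day 6 went in opposite directions in the genotypes. Its log2 change was 0.68 in WT, -1.35 in W330R and -1.02 in W330R-R181E. Every pairing of a day 6 with a day 2 library rose in WT and fell in both mutants. Because Fabp5 was picked for this opposite course, the pairings restate the choice and are no separate support. The tests that follow were made on a gene picked in this way. The share of all genes with such a course was not counted. The difference of the W330R course from that of WT was -2.03 ± 0.41 (edgeR adjusted p = 0.0984), and that of the W330R-R181E course was -1.70 ± 0.41 (edgeR adjusted p = 0.288). Neither adjusted p passed 0.05, and both comparisons share the WT libraries.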

How the results depend on the processing

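Counts below are of the 9 tested genes called, and small relative changes are left out. With DESeq2 those left out were 4 to 5 at day 6 and 5 to 6 over days 2 to 6 for W330R against WT. The double mutant course, from 2 to 3, was left out as well. Scaling by RLE changed no call, and no called difference changed sign under any alternative tried. DESeq2 moved W330R against WT from 0 to 1 undifferentiated and from 1 to 4 at day 4, the double mutant against W330R at day 6 from 0 to 1, against WT from 0 to 1 at days 2 and 4 and from 1 to 3 at day 6, the W330R course from day 2 to day 6 from 2 to 4, and the difference of the W330R and WT courses from 0 to 1. Without the filter, W330R against WT undifferentiated went from 0 to 1, the double mutant against WT from 0 to 1 at days 2 and 4 and from 1 to 2 at day 6, the W330R course from 2 to 5 and the difference in course from 0 to 1. Fits of only the conditions compared gave 3 in place of 0 for W330R against WT undifferentiated, 0 in place of 1 at days 2 and 4 and 1 in place of 4 at day 6. They gave 0 in place of 1 for the double mutant against W330R at day 2 and against WT at day 6, 1 in place of 4 against WT over days 2 to 6, 5 in place of 2 for the W330R course and 1 in place of 2 for that of the double mutant. These fits hold fewer libraries, and the cause of the other shifts was not tested.

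The replicate block gave 2 in place of 1 for W330R against WT at day 4, 1 in place of 0 for the double mutant against WT at day 2 and 2 in place of 1 at day 6, and the 7 single-gene calls it added stand beside those genes. It ended no call. Leaving out 1 library gave 0 to 1 for W330R against WT at day 2, 0 to 2 at day 4 and 1 to 5 at day 6. For the double mutant against W330R it gave 0 to 1 at day 2 and 2 to 5 over days 2 to 6, and against WT 0 to 1 at day 2, 0 to 3 at day 6 and 1 to 5 over days 2 to 6. For the course from day 2 to day 6 it gave 1 to 3 in each genotype, and for the difference of the W330R and WT courses 0 to 1. With 1 library left in a condition, that library was assumed to vary like the others.

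Over all genes, W330R against WT at days 2, 4 and 6 called 445, 891 and 1095 genes, and 1081, 1700 and 1754 with DESeq2, 0, 0 and 57 with only the conditions compared, and 909, 1848 and 1757 with the block. Undifferentiated, 254 became 528, 4194 and 392. The double mutant against W330R called 387, 278 and 218 at days 2, 4 and 6, and 902, 690 and 674 with DESeq2, 0 at each day with only the conditions compared, and 749, 542 and 498 with the block. Against WT, 0, 0 and 127 became 110, 160 and 602 with DESeq2, 10, 3 and 386 with the block and 17, 35 and 223 without the filter, and 127 became 0 with only the conditions compared. Over days 2 to 6 the double mutant against WT went from 1390 to 2272 with DESeq2, 163 with only the conditions compared and 2338 with the block. The course called 3862 genes in WT and 3369 in the double mutant, and 1030 and 80 with only the conditions compared. The difference of the W330R and WT courses called 13, and 129 with DESeq2, 0 with only the conditions compared, 24 with the block and 33 without the filter, and that of the double mutant and W330R called 0, and 39, 2 and 4 with DESeq2, the block and no filter.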
